A study of Mus musculus with 6 samples.

Results

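Interferon-stimulated genes were examined in mouse small intestinal organoids cultured with low density lipoprotein (LDL) or with PBS. The list holds 37 genes of the 55416 genes counted, and each was found through its Ensembl identifier in the GENCODE annotation. The list gathers established members of the pathway, and its rule uses no measured value. LDL treatment moved a few of these genes in different directions. Rsad2, Oasl1, Ifit2 and Irf1 were upregulated by 4.78-fold, 3.04-fold, 2.30-fold and 1.56-fold, respectively. The value of Rsad2 rests on 1 to 8 reads per library with PBS. Psmb9 and Irf8 were downregulated to 0.430-fold and 0.666-fold of the PBS level. The summed level of the 37 genes was nearly the same with and without LDL in each mouse. Trim25 and Irf8 were the largest terms of that sum and moved in opposite directions. In addition, 12 of the genes had 0 to 24 reads per library and were not tested.

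Type I and type III interferons bind their receptors and activate the kinases JAK1 and TYK2, which phosphorylate STAT proteins. STAT2 and IRF9 are parts of the ISGF3 complex, which binds the interferon-stimulated response element in the promoters of antiviral genes. Type II interferon acts through the gamma-activated site in genes such as Irf1. In the intestinal epithelium this program is known for defense against viruses, with a large role for interferon lambda, and part of it is expressed at low level without any infection.

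Crypts of the duodenum and jejunum from 3 C57BL/6 mice, labelled WT, were grown as organoids, that is, as epithelial structures in 3-dimensional culture. The organoids of each mouse received 50 μg/ml LDL or PBS as the vehicle control for 5 days, which gave 3 LDL-treated and 3 PBS-treated libraries with 1 of each per mouse. Ages are not given in the sources used here. Because the RNA is from whole cultures, fewer cells of a type and less RNA per cell cannot be told apart.

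The libraries held 22061545 to 31073360 reads on genes. Reads were found on 35781, 29870 and 32751 genes in the LDL-treated libraries of mice 1, 2 and 3, against 29285 to 30018 genes with PBS. In the LDL-treated library of mouse 1, 7.62% of the reads lay on Rn18s-rs5, a ribosomal RNA gene, whereas the top gene of the other libraries was mitochondrial and took 2.60% to 3.32%. All 12 epithelial markers passed the filter on low values, so the epithelial label was met. Of 26 immune cell markers, 7 passed the filter, among them Cd14 and Kit, and 2 had no read in any library. The 26 summed to 710 to 888 normalized counts with LDL and to 844 to 986 with PBS. Ptprc, which marks all leukocytes, had 2 to 10 reads per library, and Trbc2 and Nkg7, which mark T cells and cytotoxic lymphocytes, had none.

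The values are normalized counts, that is, reads per gene divided by 1 size factor per library. LDL and PBS were compared within mice on log2(normalized count + 1) with limma, using the mouse as a block, over 18459 genes whose mean normalized count reached 10. Calls required a Benjamini-Hochberg adjusted p under 0.05 and over 1.5-fold change. Fold changes are on this log2 scale, which understates the change of low genes. Each animal gave 1 culture per treatment here, so the p-values and SEs rest on the spread of the difference between 3 mice. For each gene, limma draws that spread toward a trend with level over all genes tested.

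Of the 37 interferon-stimulated genes, 25 passed the filter. In total, 4 were called higher with LDL, against 5.68% of all genes tested, and 2 were called lower, against 3.46% of all genes tested. These are 16% and 8% of the 25 genes. The list was chosen with earlier results of these libraries known, and Rsad2 passed the filter only through its LDL-treated libraries, so the shares are a description. The median log2 fold change of the 25 genes was −0.02, as it was over all genes tested, with 12 genes higher and 13 lower. The groups did not overlap for 6 genes that were higher with LDL (Rigi, Trim25, Oasl1, Ifit2, Rsad2 and Parp14) and 3 that were lower (Ifi35, Psmb9 and Tap1). The same held for 11.9% and 12.3% of all genes tested, respectively. In all 3 mice 8 of the genes were higher with LDL and 10 were lower, where 24.2% and 26.8% of all genes tested were so.

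Without the mouse as a block, only Ifit2 was called among the 37 genes (limma). That fit called 0.878% of all genes tested higher and 0.395% lower. Among the 37 genes it called 1 higher and 0 lower, and the DESeq2 fit without the block called 3 higher and 0 lower. With the block, 9 of the 25 genes had an unadjusted p under 0.05, as did 5554 of all 18459 genes tested. Mouse 3 also decided the calls. When both of its libraries were left out, none of the genes was called and all genes tested gave 277 calls higher and 82 lower, although the log2 fold changes of the 6 called genes lay between −1.29 and 2.64 and each kept its direction. Without mouse 1, the 4 genes that rose were still called and neither of the 2 that fell was. All genes tested then gave 719 calls higher and 326 lower. Without mouse 2, Mx1 and Tap1 were called in addition to the 6, and the calls over all genes tested rose to 1634 higher and 1333 lower.

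**Figure D1:**
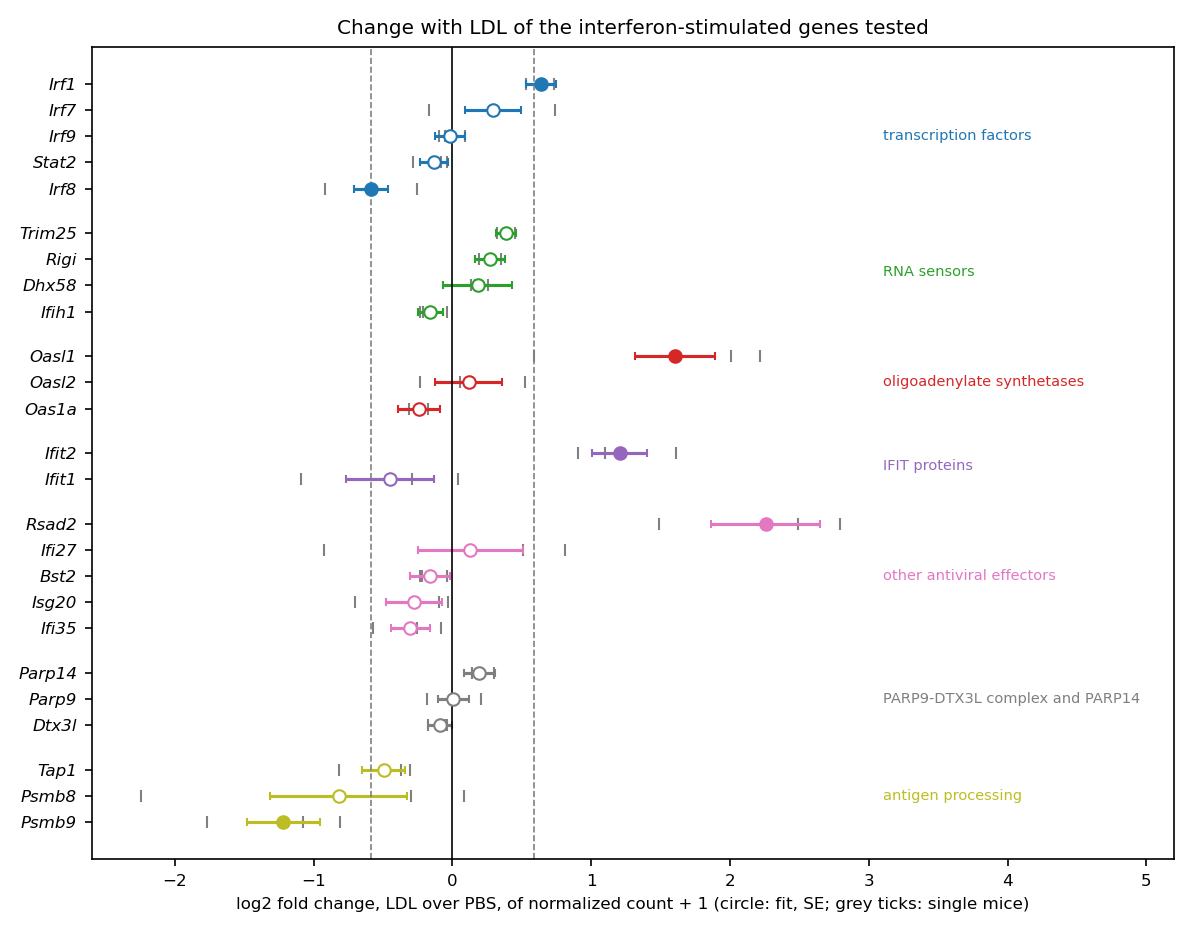
Log2 fold change (LDL over PBS) of the 25 tested interferon-stimulated genes on the log2(normalized count + 1) scale, grouped by role. Circles are the limma fit with the mouse as a block, filled where called, bars are its standard errors, grey ticks are single mice and dashed lines mark 1.5-fold; 4 genes lie to the right as filled circles and 2 to the left.

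Among the transcription factors of the pathway, Irf1 was upregulated and Irf8 was downregulated, and Stat2, Irf9 and Irf7 were not called. Irf1 (ENSMUSG00000018899, chr11:53660812-53669200, plus strand, GRCm39) encodes interferon regulatory factor 1, a factor that interferon gamma induces directly. Its normalized count was 245, 417 and 459 in the LDL-treated organoids of mice 1, 2 and 3, and 169, 251 and 289.8 with PBS. Each mouse was higher with LDL, by 1.44-fold to 1.66-fold, but the groups overlapped because mouse 1 was low under both treatments. The log2 fold change was 0.64 ± 0.11 (SE, n = 3 mice) with an adjusted p of 0.00752 in limma with the mouse block and of 0.260 without it. Without mouse 3 the adjusted p was 0.142 with a log2 fold change of 0.63. A transcript annotated on the opposite strand, Gm17334, shares 1467 exonic bases with Irf1 and was also higher with LDL, at 54.6 to 81.1 against 25.5 to 35.0. Since the strand setting of the counting is not given in the sources used here, reads of the pair cannot be told apart.

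Irf8 (ENSMUSG00000041515, chr8:121463096-121485659, plus strand) encodes a factor of the same family that is best known from myeloid and lymphoid cells. It had a normalized count of 883, 1609.6 and 1055 with LDL and 1672, 1919 and 1588 with PBS. All 3 mice were lower with LDL, to 0.528-fold, 0.839-fold and 0.665-fold, and the LDL-treated library of mouse 2 was above the lowest PBS-treated one, so the groups overlapped. This was a log2 fold change of −0.59 ± 0.12 (SE, n = 3 mice), just past the 1.5-fold line, with an adjusted p of 0.0172 in limma with the mouse block and of 0.176 without it. Without mouse 1 it was −0.42 with an adjusted p of 0.054, and without mouse 3 it was −0.59 with one of 0.187. Immune cell markers summed to 710 to 888 normalized counts with LDL and to 844 to 986 with PBS, and their part in the Irf8 difference was not tested.

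Stat2, Irf9 and Irf7 were not called, with log2 fold changes of −0.13 ± 0.10, −0.02 ± 0.11 and 0.29 ± 0.20 (SE, n = 3 mice). STAT2 and IRF9 serve type I and type III interferon, and IRF7 drives interferon alpha genes.

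The promoters of Irf1 and Irf8 are shown because these were the called transcription factors and because both held a gamma-activated site. Capitals mark the letters of that motif (TTCNNNGAA, where N is any base). The sequences are RefSeq promoters read 5′ to 3′ on the strand of the gene, placed on GRCm39 by exact match at chr11:53660721-53660789 and chr8:121462896-121462982, both on the plus strand.
Irf1: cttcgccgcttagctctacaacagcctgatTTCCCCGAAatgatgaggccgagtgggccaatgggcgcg
Irf8: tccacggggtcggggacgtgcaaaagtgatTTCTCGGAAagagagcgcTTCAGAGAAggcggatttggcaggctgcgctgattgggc
The site of Irf1 began 90 bases before the transcription start, and the sites of Irf8 began 171 and 153 bases before it. Both genes have a second RefSeq start whose window did not hold the motif.

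Of the oligoadenylate synthetase family, Oasl1 was the gene that changed. The catalytic members of this family sense double-stranded RNA and activate RNase L, whereas OASL1 lacks the synthetase activity and is known in mice as a brake on Irf7 translation. Oasl1 (ENSMUSG00000041827, chr5:115061294-115075974, plus strand) had a normalized count of 350.0, 156 and 406 with LDL and 74.5, 103 and 100.1 with PBS. All LDL-treated libraries were above all PBS-treated ones, and mouse 2 rose by 1.503-fold where mice 1 and 3 rose by 4.65-fold and 4.02-fold. Mean levels were 304 ± 131 (SD, n = 3) after LDL and 92.6 ± 15.7 (SD, n = 3) after PBS, a log2 fold change of 1.60 ± 0.29 (SE) with an adjusted p of 0.00989 in limma with the mouse block and of 0.0708 without it. Without mouse 3 the adjusted p was 0.149 with a log2 fold change of 1.402.

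The neighbor of Oasl1 on chromosome 5, Oasl2, starts 26297 bases away in the same orientation. Its log2 fold change was 0.12 ± 0.24 (SE, n = 3 mice), with mouse 3 lower and mice 1 and 2 higher with LDL. The catalytic Oas1a had a log2 fold change of −0.24 ± 0.15 and was lower with LDL in every mouse. Neither gene was called, and reads of Oas1a may be split with its close paralogs. Oas2 and Oas3 did not reach the filter. Oas3 had 15, 13 and 12 reads with LDL and 3, 7 and 3 with PBS, and was not called in the limma fit without a filter (adjusted p = 0.174).

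Among the IFIT genes, which encode tetratricopeptide repeat proteins that bind viral RNA and limit its translation, Ifit2 rose and Ifit1 was not called. Ifit2 (ENSMUSG00000045932, chr19:34527932-34554524, plus strand) had a normalized count of 139, 110.0 and 115 with LDL and 44.9, 50.9 and 61.1 with PBS. Every LDL-treated library was well above every PBS-treated one, with a mean of 121 ± 15.4 (SD, n = 3) against 52.3 ± 8.16 (SD, n = 3). The log2 fold change was 1.20 ± 0.20 (SE), and Ifit2 was called by limma both with the mouse block (adjusted p = 0.00658) and without it (adjusted p = 0.0353). Without mouse 3 the adjusted p was 0.066 with a log2 fold change of 1.35.

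Ifit1 had 9, 30 and 19 reads with LDL and 24, 27 and 19 with PBS, and its log2 fold change was −0.45 ± 0.32 (SE, n = 3 mice; adjusted p = 0.397 in limma). Ifit3 had 7, 10 and 8 reads with LDL and 5, 3 and 1 with PBS, which was under the filter. Both were thus at the edge of detection, and reads of Ifit3 may be split with its near copy Ifit3b. The other genes of this cluster on chromosome 19 included a larger change. Ifit1bl1, a gene like Ifit1 on the minus strand between Ifit3 and Ifit3b, had 171, 77.3 and 109 normalized counts with LDL and 13.3, 9.94 and 5.70 with PBS. Its log2 fold change was 3.49 ± 0.29 (SE, n = 3 mice), called by limma with the block (adjusted p = 0.000378) and without it. Its mean was 9.64 with PBS and 119 with LDL, so it passed the filter only through its LDL-treated libraries, and the call is a description. For Ifit1bl2 the log2 fold change was 1.01 (adjusted p = 0.00138 in limma with the block, 0.219 without it), and its groups overlapped. Ifit1 lies within the span of Ifit1bl2 on the opposite strand.

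The 3 IFIT promoters are shown because Ifit2 was called, Ifit1 was not and Ifit3 was not tested, and because their windows held different motifs. The capitals mark the interferon-stimulated response element (GAAANNGAAA, searched on both strands) in Ifit1 and Ifit3 and the gamma-activated site in Ifit2. The windows lie on the plus strand of chromosome 19 at chr19:34618155-34618243, chr19:34527844-34527891 and chr19:34560743-34560846 of GRCm39.
Ifit1: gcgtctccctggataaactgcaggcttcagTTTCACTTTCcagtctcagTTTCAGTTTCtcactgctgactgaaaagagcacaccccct
Ifit2: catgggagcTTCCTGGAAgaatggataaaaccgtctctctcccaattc
Ifit3: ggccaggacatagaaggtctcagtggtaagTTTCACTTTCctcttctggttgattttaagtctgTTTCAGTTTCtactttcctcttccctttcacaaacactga
Ifit1 and Ifit3 each held 2 copies, all in the reverse orientation, which began 104 and 85 bases before the start in Ifit1 and 156 and 122 bases before it in Ifit3. The 2 RefSeq windows of Ifit2 held no copy with these letters, and the gamma-activated site of 1 window began 241 bases before its start. A match is a description of the letters in the window and not of binding.

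Rsad2 had the largest fold change of the 25 genes. It encodes viperin, a radical SAM enzyme that makes a chain-terminating nucleotide and limits the replication of many viruses. Rsad2 (ENSMUSG00000020641, chr12:26492745-26506451, minus strand) had a normalized count of 39.03, 14.6 and 20.1 with LDL and 6.12, 1.24 and 6.51 with PBS. These rest on 32, 16 and 24 reads against 6, 1 and 8 reads, so Rsad2 was at the edge of detection with PBS. All LDL-treated libraries were above all PBS-treated ones. Its log2 fold change was 2.26 ± 0.39 (SE, n = 3 mice) with an adjusted p of 0.00851 in limma with the mouse block and of 0.101 without it. It was 2.64 with an adjusted p of 0.0618 without mouse 3. Cmpk2, which is often induced with Rsad2 and starts 12752 bases away on the opposite strand, had a log2 fold change of −0.12 ± 0.21 and was not called.

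The promoter of Rsad2 held 1 response element in the reverse orientation, 120 bases before its start. It is shown beside that of Isg15, whose promoter held 3 copies that overlap each other, because Rsad2 was called and Isg15 was close to undetected while both carried the motif. The windows lie on the minus strand at chr12:26506532-26506601 and chr4:156285302-156285383 of GRCm39, and capitals mark the motif.
Rsad2: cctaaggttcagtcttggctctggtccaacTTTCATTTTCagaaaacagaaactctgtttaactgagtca
Isg15: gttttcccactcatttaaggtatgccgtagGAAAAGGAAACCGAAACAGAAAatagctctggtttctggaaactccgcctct
Isg15 encodes the ubiquitin-like modifier of the interferon response and is among its most strongly induced genes. It had 2, 3 and 2 reads with LDL and 1, 2 and 4 reads with PBS, so that it was close to undetected under both treatments. Usp18, the protease that removes ISG15, had 1, 4 and 10 reads with LDL and 6, 3 and 3 with PBS.

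The other antiviral effectors that passed the filter were not called. Ifi35, which encodes a leucine zipper protein, had a normalized count of 137, 186 and 203 with LDL and 204, 222 and 215 with PBS. Its groups did not overlap, but the difference was uneven, with mouse 1 at 0.671-fold and mouse 3 at 0.946-fold, and the adjusted p was 0.191 in limma. Exons of Ifi35 share 620 bases with Vat1 on the opposite strand. Bst2, which encodes tetherin, a protein that holds budding virus at the cell surface, had a log2 fold change of −0.16 ± 0.15 (SE, n = 3 mice). The exonuclease gene Isg20 had one of −0.28 ± 0.20, and Ifi27, a mitochondrial protein gene, one of 0.13 ± 0.38. Both Bst2 and Isg20 were lower with LDL in every mouse, whereas Ifi27 was lower in mouse 2 and higher in mice 1 and 3.

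The Mx GTPases, which block incoming viral ribonucleoproteins, and the guanylate-binding proteins, which act on vacuoles of pathogens, were under the filter throughout. Mx1 had 24, 2 and 16 reads with LDL and 1, 4 and 4 with PBS. Mice 1 and 3 were thus higher with LDL, and mouse 2 was lower. Without mouse 2 the gene was called (log2 fold change 2.83, adjusted p = 0.00135 in limma). It passed the filter there only through its LDL-treated libraries (29.3 and 13.4 normalized counts, against 1.02 and 3.26 with PBS). Since the mouse left out was the one that ran the other way, this call is a description. Mx2 had 3 to 11 reads with LDL and 3 to 8 with PBS, and Gbp7 had 1 to 11 and 5 to 21, so that their groups overlapped. Gbp3 had 0 to 4 reads in any library. Gbp2 had 3, 0 and 2 reads with LDL and no read with PBS, where a count of 0 allows up to 3 reads in a library. Xaf1 and Ifi44, which are induced by type I interferon in many cells, had 3 to 11 and 1 to 8 reads. None of the 12 genes under the filter was called in the limma fit without a filter, where their adjusted p lay between 0.174 and 0.974.

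**Figure D2:**
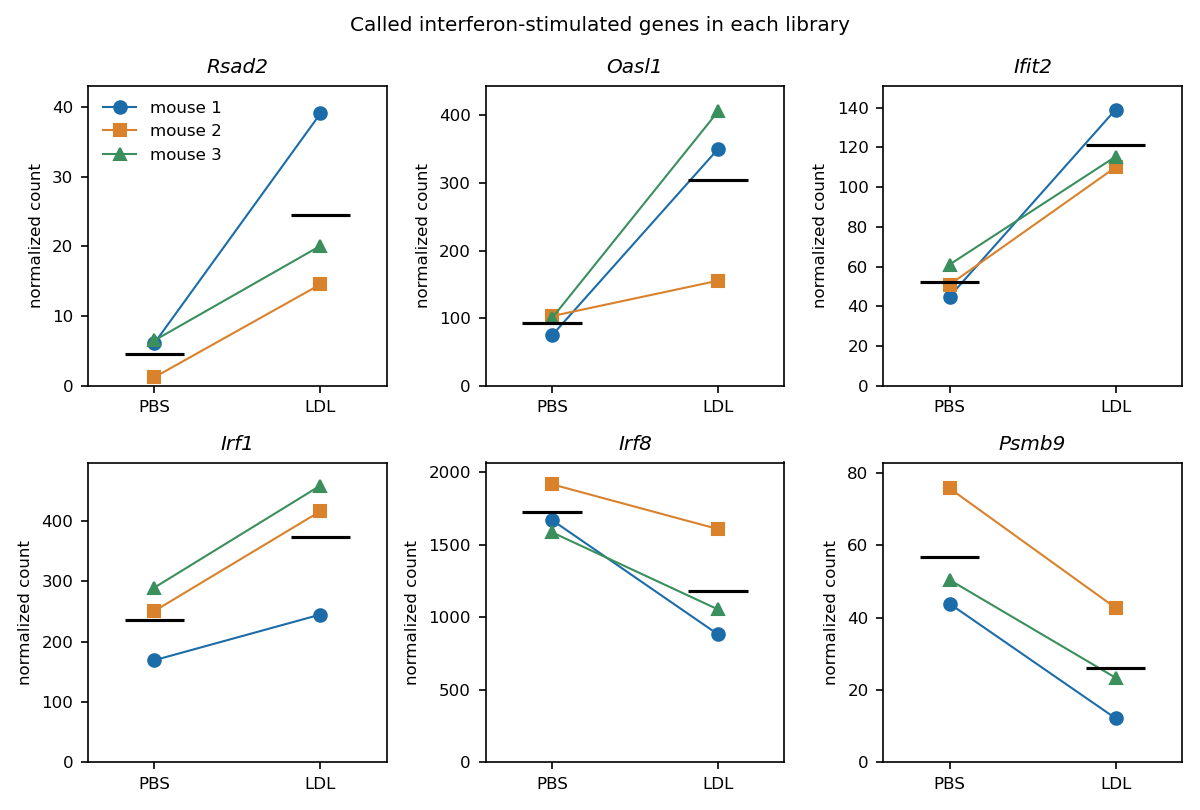
Normalized count (y axis, from 0) of the 6 called interferon-stimulated genes in each PBS-treated and LDL-treated library, with lines joining the libraries of 1 mouse and bars at the group means. In each panel all 3 lines run in 1 direction, and the groups overlap for Irf1 and Irf8 alone.

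None of the RNA sensors was called, though 3 of the 4 were higher with LDL in every mouse. TRIM25 is a ubiquitin ligase that acts with RIG-I, the sensor of viral RNA that Rigi encodes. Trim25 had normalized counts of 2092, 1630 and 1710.0 with LDL and 1527, 1304 and 1312 with PBS. The groups did not overlap, and the folds of single mice were close to each other, from 1.25 to 1.37. For Trim25 the log2 fold change was 0.39 ± 0.07 (SE, n = 3 mice; adjusted p = 0.0129 in limma with the block, 0.144 without it), which was under the 1.5-fold line. Rigi had a log2 fold change of 0.27 ± 0.11 with groups that did not overlap (adjusted p = 0.135 in limma). Dhx58, which encodes the related protein LGP2, had one of 0.18 ± 0.25, and Ifih1, which encodes the sensor MDA5, had one of −0.16 ± 0.09.

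PARP9 and DTX3L form a complex with ubiquitin ligase activity, and PARP14 is a related ADP-ribosyltransferase. Parp14 had normalized counts of 274, 246 and 263 with LDL and 223, 222 and 239 with PBS, so the groups did not overlap, but the log2 fold change was 0.19 ± 0.11 (SE, n = 3 mice; adjusted p = 0.298 in limma). Parp9 and Dtx3l start 681 bases apart on opposite strands and share 458 exonic bases. Their log2 fold changes were 0.01 ± 0.11 and −0.09 ± 0.09, and neither was called.

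The 3 antigen processing genes were all lower with LDL on average, and Psmb9 was called. Immunoproteasome subunits replace the constitutive catalytic subunits of the proteasome and favor peptides for MHC class I, and TAP1 is part of the transporter that carries these peptides into the endoplasmic reticulum. Psmb9 (ENSMUSG00000096727, chr17:34400960-34406738, minus strand), which encodes the subunit LMP2, had a normalized count of 12.2, 42.7 and 23.4 with LDL and 43.9, 75.8 and 50.5 with PBS. The LDL-treated libraries were all below the PBS-treated ones, and mouse 2 was highest under both treatments. The log2 fold change was −1.22 ± 0.26 (SE, n = 3 mice) with an adjusted p of 0.0192 in limma with the mouse block and of 0.186 without it. Without mouse 1 the log2 fold change was −0.94 with an adjusted p of 0.0894, and without mouse 3 it was −1.29 with an adjusted p of 0.154.

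Tap1 starts 742 bases from Psmb9 on the opposite strand and had normalized counts of 93.9, 152 and 122 with LDL and 166, 188 and 158 with PBS. Its groups did not overlap either, and each mouse was lower with LDL, to between 0.567-fold and 0.810-fold. For Tap1 the log2 fold change was −0.50 ± 0.16 (SE, n = 3 mice; adjusted p = 0.0696 in limma), so it was not called except without mouse 2 (−0.59, adjusted p = 0.0152). The genes share 743 exonic bases, so that part of their reads cannot be told apart. Psmb8, which encodes the subunit LMP7, had 2, 16 and 14 reads with LDL and 15, 11 and 18 with PBS. The low value of mouse 1 carried its log2 fold change of −0.82 ± 0.49 (adjusted p = 0.312 in limma), which was −0.11 without that mouse.

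Of the 14 constitutive proteasome genes, 0 were called in either direction (limma), and 1 had an unadjusted p under 0.05. The ratio of each inducible subunit to the constitutive one that it replaces was then taken, a measure chosen after the values had been seen. Psmb9 stood at 0.525%, 1.31% and 0.859% of Psmb6 with LDL and at 1.61%, 2.45% and 1.62% with PBS, so the groups did not overlap and each mouse was lower with LDL, to 0.326-fold, 0.536-fold and 0.529-fold. Psmb10, the remaining inducible subunit, stood at 26.9%, 43.2% and 34.8% of Psmb7 with LDL and at 42.3%, 48.3% and 47.0% with PBS. Each mouse was lower with LDL here too, but the groups overlapped, and Psmb10 itself was not called (log2 fold change −0.38, adjusted p = 0.0838 in limma). Psmb8 stood at 0.549%, 2.24% and 1.97% of Psmb5 with LDL and at 2.87%, 2.17% and 2.25% with PBS, where mouse 2 was not lower. These are ratios of normalized counts without correction for length.

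**Figure D3:**
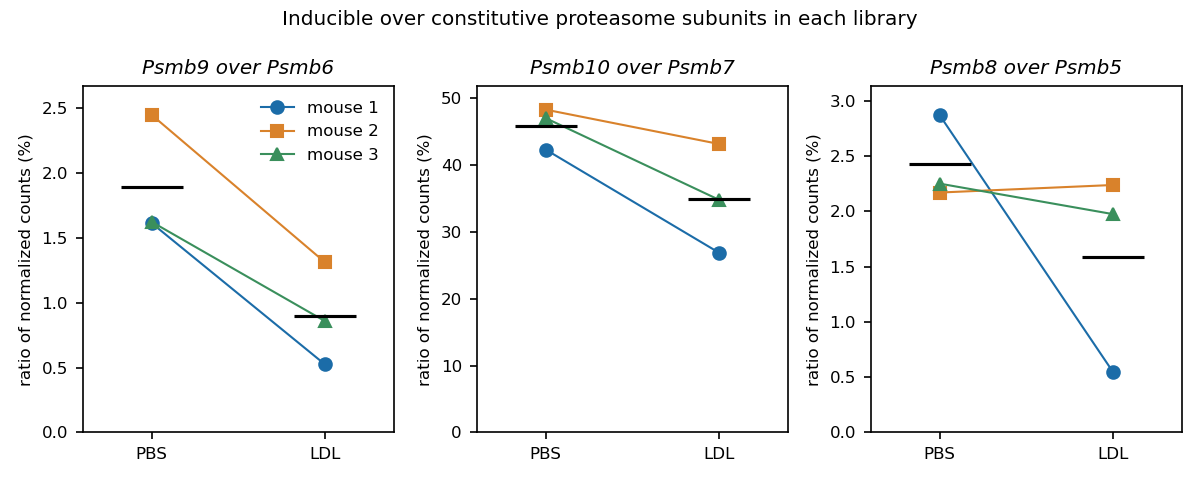
Normalized count of each inducible proteasome subunit as a percent of the constitutive subunit it replaces (y axis, from 0), by treatment, with lines joining the libraries of 1 mouse and bars at the group means. Psmb9 over Psmb6 and Psmb10 over Psmb7 fall with LDL in all 3 mice, and Psmb8 over Psmb5 falls most in mouse 1 and not in mouse 2.

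Motif content was counted over all promoters of the 37 genes in the RefSeq table (250 bases before to 50 after the start, built on GRCm38.p6). In total, 28 of the 37 genes were matched, with 35 windows; Usp18, Rigi, Dhx58, Oas2, Mx1, Mx2, Ifi27, Parp9 and Parp14 were not. The response element occurred in 12 of the genes (Stat2, Isg15, Ifih1, Oas1a, Oas3, Ifit1, Ifit3, Gbp2, Gbp3, Gbp7, Rsad2 and Bst2), in 12 of the 35 windows, and in 3.44% of all 32851 promoters of the table. The gamma-activated site occurred in 9 of them (Irf1, Irf8, Oas1a, Ifit2, Gbp7, Isg20, Bst2, Ifi35 and Psmb8), in 9 of the 35 windows, and in 8.3% of all promoters. Of the 6 called genes, Rsad2 held the response element, Irf1, Irf8 and Ifit2 held the gamma-activated site, and the windows of Oasl1 and Psmb9 held neither set of letters.

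Levels between genes were compared as normalized counts per kb of exon. With PBS, Trim25 was the highest at 240 per kb and Irf8 followed at 178 per kb. Dtx3l at 109 and Bst2 at 101 per kb came next and overlapped between libraries. With LDL, Trim25 stood at 314 per kb, and Oasl1 moved from 35.4 to 116 per kb, which placed it beside Irf8 at 122 per kb. The range among its LDL-treated libraries overlapped that of Irf8. At the low end, Gbp2, Gbp3, Ifi44 and Oas2 were under 1 per kb under both treatments. The summed normalized count of the 37 genes was 7333, 7725 and 7494 with LDL and 7230.3, 7727 and 7124 with PBS, a ratio of 1.01, 0.9998 and 1.052 in mice 1, 2 and 3. Its largest terms moved in opposite directions, with means of 1810 against 1381 with PBS for Trim25 and of 1183 against 1726 for Irf8. The genes under the filter, which add little to the sum, stood at 2.32, 1.03 and 2.39 times their PBS level. The IFIT genes summed to 2.13, 1.66 and 1.78 times and the antigen processing genes to 0.481, 0.755 and 0.705 times their PBS level. Ifit2 held most of the IFIT sum and Tap1 most of that of antigen processing.

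**Figure D4:**
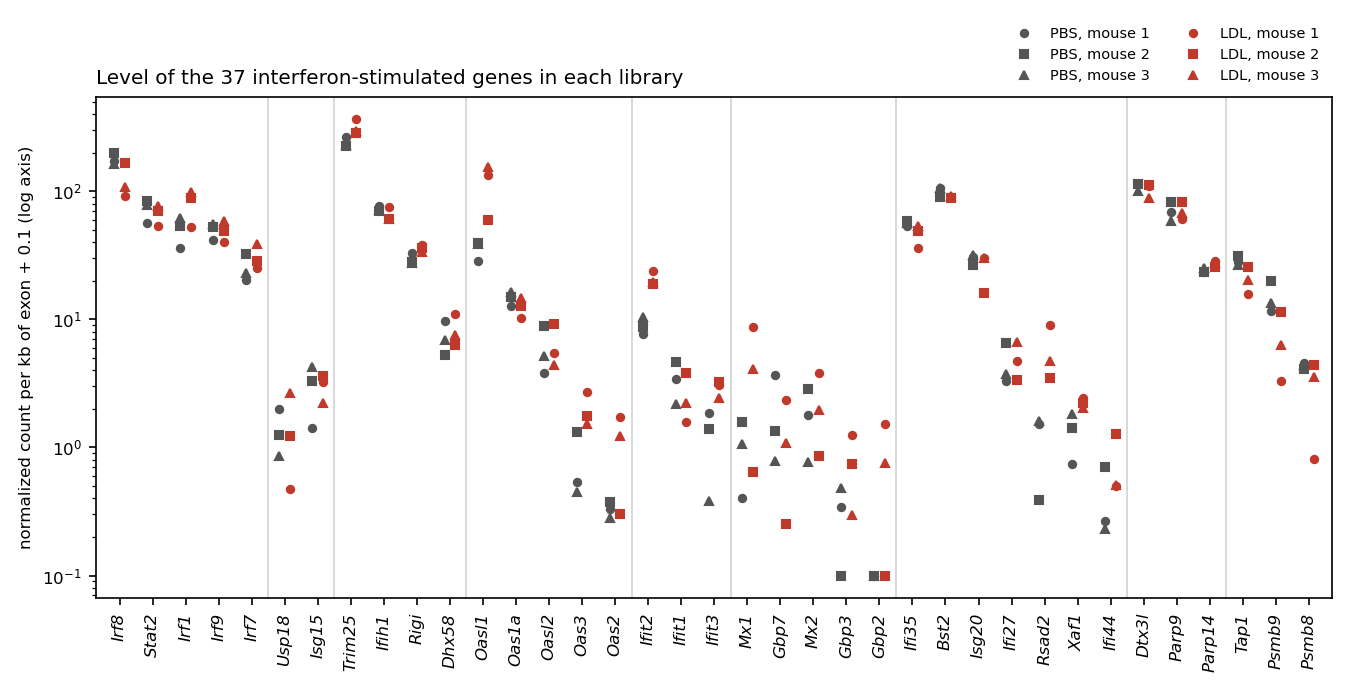
Normalized count per kb of exon, plus 0.1, on a log axis for the 37 interferon-stimulated genes in each library, ordered by role and level. The genes span from Trim25 at 314 (LDL mean) to Gbp2, which has no read in the PBS-treated libraries, and the LDL and PBS points of most genes overlap.

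Genes that act before the 37 were counted in lists of ligands, receptors and sensors. Of 20 interferon ligand genes, 9 had no read in any library, including Ifnb1, and the others except Ifnk had 0 to 2 reads per library. Ifnk, an interferon of epithelia, was the ligand that passed the filter, with 61.0, 35.5 and 49.3 normalized counts with LDL and 32.7, 34.8 and 35.8 with PBS (log2 fold change 0.45 ± 0.24, adjusted p = 0.259 in limma). In the receptor and JAK-STAT list, 18 of 19 genes passed the filter, 1 was called higher and 0 were called lower. These are 5.56% and 0% of those tested, against 5.68% and 3.46% over all genes. The called gene was Ifnlr1, the receptor chain for interferon lambda, with 556, 362 and 522 normalized counts with LDL and 261, 235 and 245 with PBS. Every LDL-treated library was above the PBS-treated ones, and the log2 fold change was 0.93 ± 0.13 (SE, n = 3 mice; adjusted p = 0.0033 in limma with the block, 0.0527 without it).

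In the list of nucleic acid sensing and interferon induction, 24 of 28 genes passed the filter, 3 were called higher and 1 lower (12.5% and 4.17% of those tested, against the 5.68% and 3.46% over all genes). Sting1, which encodes the adaptor of the cytosolic DNA sensor cGAS, had a log2 fold change of 1.55 ± 0.27 (SE, n = 3 mice). Aim2, a DNA sensor of an inflammasome, had one of 0.92 ± 0.17, and Tlr3, a sensor of double-stranded RNA, one of 0.81 ± 0.12. Mavs, the mitochondrial adaptor on which RIG-I and MDA5 converge, was lower, at 766, 1367 and 905 normalized counts with LDL and 1430.1, 1696 and 1543 with PBS. Its groups did not overlap, and the log2 fold change was −0.66 ± 0.12 (adjusted p = 0.0092 in limma with the block, 0.134 without it). None of these 4 genes was called in limma without the block.

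In a further list of 71 interferon-stimulated genes, 36 passed the filter, 3 were called higher and 1 lower. These are 8.33% and 2.78% of those tested, near the 5.68% and 3.46% over all genes. Beside Ifit1bl1 and Ifit1bl2, Samd9l, a gene with antiviral activity, had a log2 fold change of 1.06 ± 0.16 (SE, n = 3 mice; adjusted p = 0.0051 in limma with the block, 0.0538 without it). Ifi27l2b, which encodes a small protein related to IFI27, was lower (−0.63 ± 0.12, adjusted p = 0.0119 in limma with the block, 0.104 without it). In the MHC class I list, 20 of 21 genes passed the filter, 0 were called higher and 1 lower. These are 0% and 5% of those tested, against 5.68% and 3.46% over all genes. The called gene was H2-T3, a nonclassical class I gene of the intestinal epithelium. It had 293, 650.2 and 347 normalized counts with LDL and 706, 1239 and 639.9 with PBS. Each mouse was lower with LDL and the groups overlapped through mouse 2 (log2 fold change −1.03 ± 0.10, adjusted p = 0.0010 in limma with the block, 0.155 without it). For B2m, the shared light chain of class I molecules, the log2 fold change was −0.23 ± 0.09 (adjusted p = 0.118 in limma).

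Markers of epithelial cell types and states also differed between treatments. All 9 tested markers of fetal-like epithelium were called higher with LDL, and their summed level rose 5.17-fold, 2.44-fold and 4.57-fold in mice 1, 2 and 3. Epithelial markers summed to 129340 to 164874 normalized counts with LDL and 115530 to 119170 with PBS, with 3 of 12 called higher (Krt8, Krt18 and Krt20). Of 10 enterocyte markers 4 were called higher and 1 lower, and of 7 Paneth cell markers 1 was called higher and 3 lower. Of the 7 tested immune cell markers Cd14 was called higher and Kit lower, and of the 7 tested stromal markers S100b was called higher. Over all genes tested, 5.68% were called higher and 3.46% lower. The part of these marker shifts in the values of the interferon-stimulated genes was not tested.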

How the data were processed

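RNA-Seq of organoids from 3 mice, each with an LDL-treated and a PBS-treated culture, gave 6 libraries, which were grouped by their labels. The authors removed ribosomal RNA, made stranded libraries, demultiplexed with bcl2fastq 2.20, aligned to GRCm39 with STAR, counted with featureCounts and used DESeq2. The values deposited by the authors have the unit signal (normalized counts: reads on a gene over the size factor of its library). Dividing by the step of each library gave whole reads for 100% of them (tolerance 0.1 read), and depth was 22061545 to 31073360 reads. A count of 0 allows up to 3 reads by counting error. In GENCODE M39, 54749 identifiers were matched and 667 were not.

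Libraries of 1 replicate number share an animal identifier, and after removal of treatment means their values deviated together (r over genes, which are not replicates, of 0.48, 0.42 and 0.46 in mice 1, 2 and 3), so the mouse was a block. limma 3.58.1 in R 4.3.3 was fitted with a trend, two-sided, to log2(normalized count + 1) over 18459 genes (mean 10 or higher), with Benjamini-Hochberg adjustment over all of them. Alternatives were pseudocounts of 0.5 and 5, no filter or a mean of at least 50, other scalings, no block, each mouse left out, and edgeR 4.0.16 and DESeq2 1.42.0 on the recovered reads. The limma steps were tested on simulated data. Further software was matplotlib 3.10.9, numpy 2.4.6, pandas 2.3.3 and Python 3.11.15.

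The genes and lists were chosen with earlier results of these data known. Values in every library are given for genes called in either limma fit and for the largest change of each role at a mean of at least 100. Of the pathway lists, called genes are named, and of the marker lists some. Results for some items are not reported here. Other genes were named after their values had been seen.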

Additional observations from a re-analysis of the deposited data

How the results depend on the processing

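The counts of called genes among the 37 (4 higher and 2 lower) rest on the comparison within mice. With no replicate block, limma called 1 higher and 0 lower, and in the other lists of the pathway 1 higher and 0 lower in place of 7 and 3. With DESeq2 and no block, 3 were called higher and 0 lower. Leaving out each mouse in turn gave 0 to 5 higher and 0 to 3 lower among the 37 genes, and 2 to 11 higher and 1 to 6 lower in the other lists. At a mean of at least 50, 3 genes were higher, since Rsad2 was not tested, and 1 was lower (Irf8, since Psmb9 was not tested). With quantile normalization, edgeR and DESeq2 with the block, 1 was lower (Psmb9). There Irf8 moved to the other side of the 1.5-fold line with log2 fold changes of −0.57, −0.56 and −0.57. At any fold change, 10 genes of the other lists were higher and 5 were lower. The median log2 fold change of the genes was 0.13 with no filter and −0.0914 to 0.0104 with a mouse left out. When a mouse was left out, 7 to 9 genes were higher and 6 to 7 lower without overlap, since fewer libraries overlap less. The shares over all genes were not counted for this setting. Both pseudocounts, no filter, TMM and upper-quartile scaling gave 4 higher and 2 lower.

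In total, 4 uncalled genes changed sign. Irf9 was at −0.0739 to 0.0207 with a mouse left out, 0.0062 with edgeR, 0.0003 with DESeq2 and the block and 0.0072 with DESeq2 and no block. Oasl2 was at −0.0099 with quantile normalization and −0.0873 to 0.2894 with a mouse left out. Ifi27 was at −0.0040 with quantile normalization and −0.2102 to 0.6578 with a mouse left out. Parp9 was at −0.0066 with TMM, −0.0199 with upper-quartile scaling and −0.0914 to 0.1025 with a mouse left out. Of 343 values of single genes under 14 alternatives, 311 kept direction and call. The 12 genes under the filter had 0 to 24 reads per library, which limits the precision of their values.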
